A study of Mus musculus with 24 samples.

Results

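Gastric reflux in mice that lack Nrf2 was studied by setting 3 arrays of oesophagus taken after 4 weeks of gastric reflux against 3 arrays of oesophagus taken without reflux. These 6 arrays were chosen by their labels, as all arrays of both groups, out of 24 arrays in the whole series. On each array the red dye Cy5 marked oesophageal RNA, and the green dye Cy3 marked a universal reference RNA made from 11 cell lines of the mouse. All values are log2 ratios of Cy5 over Cy3 unless another scale is named, so a difference of 1 is a doubling, and their precision is limited by how few arrays there are.

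The gastric reflux group was of Nrf2-/- genotype, and so was the group without reflux. The labels give all mice used here as C57BL/6J males aged 12 weeks. Nrf2-null duodenal reflux, wild-type gastric reflux and wild type without reflux (3 arrays each) served for comparison. Mixed reflux of both genotypes and wild-type duodenal reflux were read for liver genes and for ranks of group means. All groups of the series entered the test's estimate of spread. The labels tie the deletion to no promoter or cell type. The tissue was labelled as whole oesophagus in one field and as oesophageal epithelium in another. Arrays of 1 group are labelled as biological replicates. How reflux was produced is not stated in the labels, nor whether the mice without reflux had an operation.

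The mouse oesophagus is lined by a keratinised stratified squamous epithelium over connective tissue and a muscle coat. Acid and pepsin from the stomach injure this lining, and the lining answers with inflammation and faster renewal of its basal layer. Nrf2, encoded by Nfe2l2, is a transcription factor that is held inactive by Keap1 and, when released by oxidative or electrophilic stress, switches on genes of glutathione synthesis and detoxification. A comparison within the null genotype asks what gastric reflux does to the oesophagus when this response is missing.

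The labels were checked first. Nfe2l2 read -3.06, -3.72 and -3.81 under gastric reflux, against -2.87, -3.35 and -3.63 without reflux, while the 10 wild-type arrays that measured it lay between 1.45 and 2.18. Another Nfe2l2 probe also separated the genotypes, while a further one did not. That probe lay between -1.48 and -0.52 in the wild type and between -1.51 and -0.40 in the null. All 7 squamous epithelial markers were well above background on all 6 arrays, with means of 5.12, 4.79 and 4.78 under gastric reflux and 4.50, 4.38 and 4.51 without reflux. All 6 skeletal muscle, 5 smooth muscle and 6 fibroblast markers were above background there too. In such bulk tissue, fewer cells of a type and less RNA per cell cannot be told apart.

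Gastric reflux replicates 1 and 2 each stood apart. Replicate 1 correlated at 0.754 and 0.788 with replicates 2 and 3 of its group over genes, against 0.943 between those 2 arrays and 0.950 to 0.983 among the arrays without reflux. Its median Cy5 signal was 88.2, against 213 and 245 on the other gastric arrays and 195, 226 and 215 without reflux. Its skeletal muscle genes averaged 4.32, against 1.34 and 1.39 on the other gastric arrays and 1.35, 2.27 and 2.18 without reflux. The male label of replicate 2 went against its sex-linked genes. It read -1.78 for Xist, the X inactivation RNA, where the other arrays of the series lay between -7.20 and -4.61. It also read -4.20 for the Y-linked Ddx3y, where the others lay between 0.16 and 1.48. Scan days overlapped in part: the gastric arrays and no-reflux replicate 3 were scanned on day 3, and no-reflux replicates 1 and 2 on day 2.

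Of 20555 genes tested, 86 were higher (0.418%) and 30 lower (0.146%) under gastric reflux at an adjusted p under 0.05 in limma's test. The rises measured 0.61 to 6.99 and 40 of them reached at least 2, whereas the falls measured 0.54 to 2.22 and 1 reached 2. The median difference of all genes was 0.06. The 3 gastric arrays lay wholly above the 3 arrays without reflux for 2095 genes (10.2%) and wholly below for 1198 (5.85%). The gastric arrays also varied more, with a median SD per gene of 0.381 against 0.157 without reflux.

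The count rests strongly on the no-reflux arrays, and on which other groups enter the test. With the 6 arrays alone 8 genes were higher and 1 lower, and with the Nrf2-null arrays alone 0 and 0. Without gastric replicate 1, 2 or 3, 36, 77 or 76 of the 86 rises and 14, 18 or 28 of the 30 falls still passed. Without no-reflux replicate 1 or 2, only 8 rises each and 4 or 3 falls still passed, while all passed without no-reflux replicate 3. Fabp1, Ambp, Fgb, Serpina1d, Ahsg, F2, Cd163l1 and Hamp2 rose, and Rab27a and Cap1 fell, in each of these 6 fits. With scan day as a block, 3 of the 86 and 4 of the 30 still passed, namely Fabp1, Serpina1d, Ahsg, Rab27a, Max, Arl15 and Snap29. All 116 genes kept their direction with that block, within day 3 and within the slide that held both groups. That was fixed beforehand, since all 116 had non-overlapping arrays and these settings compare gastric arrays with no-reflux replicate 3. It is therefore no test of scan day or slide.

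Transcripts of liver proteins, many of them secreted, made up the largest rises. All 15 genes with the largest rises are known for expression in the liver: they encode plasma proteins, clotting factors, a fatty acid carrier, a major urinary protein and a liver enzyme of glyoxylate metabolism. Their group means were higher by 3.59 to 6.99. The choice of these genes required all 3 gastric arrays to lie above all 3 without reflux. Of a list of 18 liver genes, 16 were measured, 9 were higher and 0 lower, and 15 had non-overlapping higher arrays. Over all genes 0.418% were higher and 10.2% had non-overlapping higher arrays. The median difference of the 16 was 2.92, against 0.06 over all genes. Without no-reflux replicate 1 or replicate 2, 2 of the 16 passed. Over the 6 fits that each left out 1 array the median lay between 2.53 and 3.26. With scan day as a block 1 passed, at a median of 2.92. That block compares the gastric arrays with no-reflux replicate 3 only, so it is no test of scan day.

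Fabp1, the fatty acid carrier of liver and intestine, had the largest rise. It read 7.28, 5.70 and 7.05 under gastric reflux and -0.21, -0.53 and -0.19 without reflux, a difference of 6.99 ± 0.95 (SE, adjusted p = 0.0044). The groups lay far apart, and no array without reflux held Fabp1 well above background, which bounds the change at at least 94.6-fold higher. Such a bound sets the gastric Cy5 level against the dimmest level that counts as above background, and it is open to dye bias. The Fabp1 probe lies on chromosome 6 at 71154906 to 71154965 (mm9).

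Blood clotting genes were among the rises. Fgb and Fgg, which encode chains of fibrinogen, moved alike. Fgb read 6.20, 4.53 and 4.86 under gastric reflux, against -0.05, -0.10 and -0.07 without reflux (difference 5.27 ± 0.75, adjusted p = 0.0046). Fgg read 5.93, 4.70 and 5.83, against 0.06, -0.06 and -0.20 without reflux (5.55 ± 0.90, 0.0134, at least 30.1-fold higher). The probe for Fga, the third chain of the same protein, read 0.40, 0.48 and 1.29, against 0.27, 0.34 and 0.06 (0.50 ± 0.35, 0.485), and none of the arrays without reflux held it well above background. F2, prothrombin, read 3.59, 1.66 and 2.96, against -1.96, -1.70 and -1.34 (4.40 ± 0.61, 0.0044). Hc, complement component C5, rose by 3.59 ± 0.72 (0.0354).

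Carrier and inhibitor proteins of plasma followed the same pattern. Alb, albumin, read 4.75, 4.05 and 4.26 under gastric reflux, against -0.01, -0.09 and 0.11 without reflux (4.35 ± 0.71, adjusted p = 0.014), with its probe on chromosome 5 at 90901598 to 90901657 (mm9). Ahsg, the fetuin-A gene, read 5.94, 4.43 and 4.88, against -0.09, -0.06 and 0.08 (5.11 ± 0.50, 0.000244), the smallest adjusted p of the comparison. Ambp, the precursor of alpha-1-microglobulin and bikunin, rose by 5.95 ± 0.78 (0.0044), and Serpina1d, of the alpha-1-antitrypsin family, by 5.13 ± 0.71 (0.0044). The beta-2-glycoprotein gene Apoh rose by 4.17 ± 0.73 (0.0185, at least 11.4-fold), and Mug1, a murinoglobulin that inhibits proteases, by 3.95 ± 0.65 (0.0142, at least 12.5-fold).

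Hp and Hpx, which bind free haemoglobin and haem in plasma, rose by 4.13 ± 0.86 (adjusted p = 0.0398) and 4.06 ± 0.75 (0.0251). Hp read 3.38, -0.09 and 1.39 under gastric reflux and -2.41, -2.46 and -2.86 without reflux, so gastric replicate 2 was the lowest of its group. Mup1, a major urinary protein, had its lowest gastric value on replicate 1 instead, at 3.61 against 5.18 and 6.06 on replicates 2 and 3, with -0.18, -0.21 and 0.20 without reflux (5.01 ± 0.88, 0.0185, at least 21.8-fold). Agxt, an enzyme of glyoxylate removal, rose by 3.90 ± 0.75 (0.031, at least 11.2-fold). Mup, Serpina1 and murinoglobulin genes have near-identical relatives that these probes may not tell apart.

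Not every liver gene passed. Apoa1, the main protein of high-density lipoprotein, read 1.59, 1.25 and 2.60 under gastric reflux, against 0.08, 0.04 and 0.10 without reflux (1.75 ± 0.47, adjusted p = 0.0909). Apoa2 (2.67 ± 0.75, 0.109), the retinol carrier Rbp4 (2.30 ± 0.65, 0.109) and Serpina1b (2.22 ± 0.75, 0.164) had non-overlapping arrays and also missed the threshold. Cyp2e1, a cytochrome of liver lobule centres, was the 1 of the 16 with overlapping arrays. It read 0.38, 2.03 and 3.03, against 1.31, 1.87 and 1.81 (0.15 ± 0.80, 0.945).

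**Figure D1:**
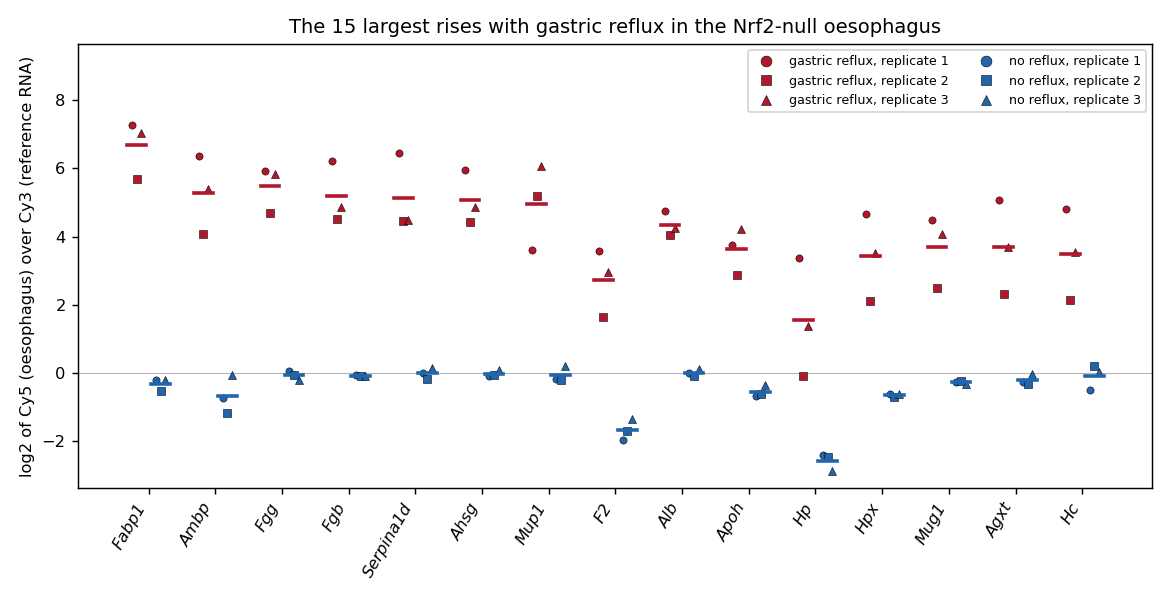
Log2 ratio of Cy5 over Cy3 of the 15 genes with the largest rise, on each gastric reflux array (red, left of each pair) and each array without reflux (blue, right), with bars at group means. The choice of the 15 genes required the gastric arrays to lie above the arrays without reflux. Fabp1 lies at 5.70 to 7.28 against -0.53 to -0.19.

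The promoters of several of these genes hold a short motif read by a liver transcription factor. HNF1 is a homeodomain factor of liver, kidney and gut whose consensus begins with GTTAAT. That run of 6 letters, or ATTAAC on the other strand, lay within 250 bases before the start in 2113 of 32851 RefSeq mouse promoters (6.43%). It lay there in 6 of the 13 rising genes found in the table (Fabp1, Fgb, Serpina1d, Alb, Mug1 and Hc) and in 1 of the 12 falling genes found there (Rab27a). A match is a description of these letters and not a measured binding site. The 150 bases before the start are shown for 4 of the largest rises as RefSeq gives them for GRCm38.p6, read 5′ to 3′ along the gene's strand, with the first match in capitals.
Fabp1, chr6:71199729-71199878, plus strand: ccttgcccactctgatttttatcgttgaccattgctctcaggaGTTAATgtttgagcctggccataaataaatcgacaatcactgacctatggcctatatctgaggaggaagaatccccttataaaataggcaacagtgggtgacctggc
Fgb, chr3:83049864-83050013, minus strand: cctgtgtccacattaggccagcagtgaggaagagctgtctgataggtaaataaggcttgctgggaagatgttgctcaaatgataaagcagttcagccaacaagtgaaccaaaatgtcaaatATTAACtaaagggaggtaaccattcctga
Serpina1d, chr12:103773634-103773783, minus strand: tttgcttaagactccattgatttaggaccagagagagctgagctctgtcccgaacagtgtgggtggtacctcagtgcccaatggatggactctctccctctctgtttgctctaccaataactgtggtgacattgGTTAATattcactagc
Alb, chr5:90460720-90460869, plus strand: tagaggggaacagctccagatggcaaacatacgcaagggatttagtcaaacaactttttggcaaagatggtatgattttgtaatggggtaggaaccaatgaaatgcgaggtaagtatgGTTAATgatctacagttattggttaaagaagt

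In Fgb, Serpina1d and Alb the match lies close to the start, and in Fabp1 it lies farther upstream.

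Liver transcripts were also read in the other reflux groups, where arrays of 1 group could differ widely. On each array the median of the 16 liver genes was 2.87, 2.07 and 3.75 in Nrf2-null gastric reflux, 3.34, 0.54 and 3.30 in Nrf2-null duodenal reflux, 0.51, 0.50 and 0.47 in Nrf2-null mixed reflux, and -0.03, -0.06 and 0.07 in Nrf2-null mice without reflux. Wild-type arrays gave 3.91, 3.01 and 2.25 under gastric and 0.22, 2.01 and 0.39 under mixed reflux, against 0.06, 0.02 and 0.27 without reflux. Under duodenal reflux the wild-type arrays lay close together, at 1.97, 2.24 and 2.22. In the wild type 12 of the 16 were higher with gastric reflux, where 2.91% of all genes were higher and 1.81% lower. For Alb the null effect minus the wild-type effect was 0.79 (95% interval -1.34 to 2.92), and for Fabp1 1.08 (-1.93 to 4.09), wide intervals that allow sizeable differences either way. Ahsg was the 1 of the 16 whose effect differed, with a null effect of 5.11 and a wild-type effect of 2.15 ± 0.50, a difference of 2.96 ± 0.71 (adjusted p = 0.041). Without reflux it already read 2.19, 1.09 and 2.33 in the wild type, against -0.09, -0.06 and 0.08 in the null. Under gastric reflux it read 4.74, 3.76 and 3.58 in the wild type, against 5.94, 4.43 and 4.88 in the null. Its genotype call was lost in 14 of 29 alternatives.

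Markers of other tissues were read on the same arrays. Adipocyte genes averaged 2.39, 0.61 and 0.75 under gastric reflux, against 0.07, 0.12 and 0.44 without reflux, so all 3 gastric arrays were higher and replicate 1 by far the most. Cfd, the adipocyte product adipsin, read 6.99, 2.58 and 2.58, against -0.25, -0.13 and 0.67 (3.96 ± 1.60, adjusted p = 0.237). Markers of glandular stomach averaged 0.02, 0.20 and 0.23, against -0.11, -0.04 and 0.00, with 0 of 13 stomach genes past the threshold. The 3 liver markers fixed for the check of tissue, Alb, Apoa1 and Ttr, averaged 2.18, 1.89 and 2.56, against 0.03, 0.01 and 0.03. None of the 3 was above background on all 6 arrays. What part liver tissue or RNA from outside the oesophagus has in these rises was not tested.

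**Figure D2:**
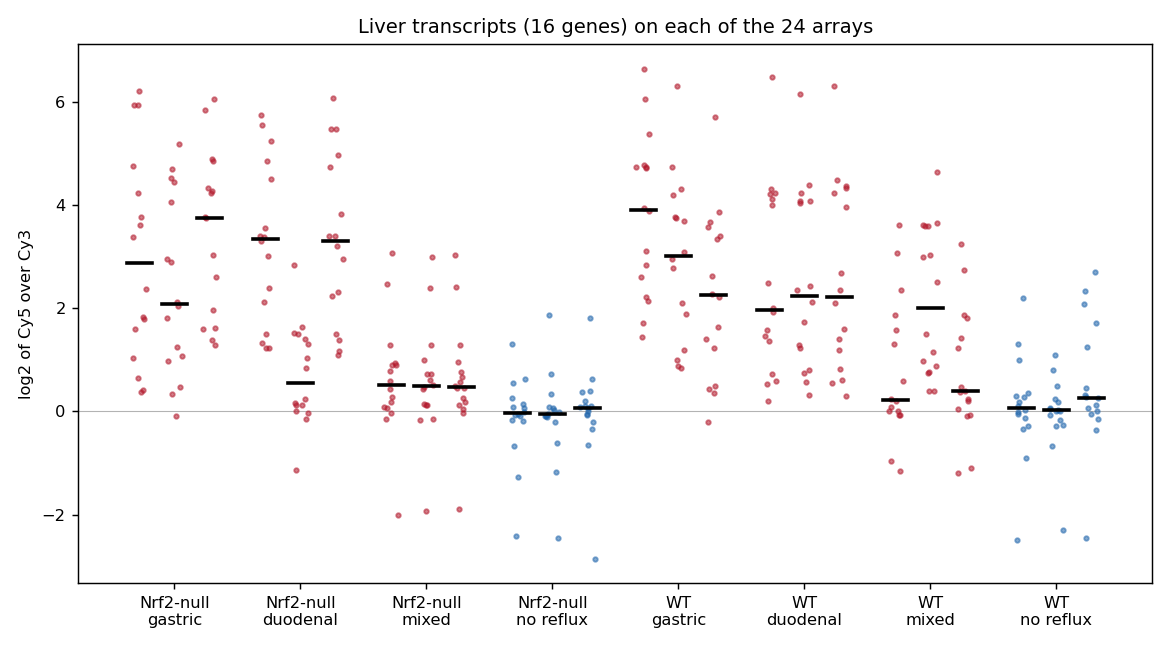
Log2 ratio of Cy5 over Cy3 of 16 liver genes (points) on each of the 24 arrays, with a bar at the array's median, by genotype and reflux type. The 3 Nrf2-null gastric arrays have medians of 2.87, 2.07 and 3.75, against -0.03, -0.06 and 0.07 without reflux.

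The falls were smaller, and no list of genes led them. Rab27a, a small GTPase that moves secretory vesicles to the cell surface, fell most. It read 0.65, 0.48 and 0.23 under gastric reflux and 2.57, 2.50 and 2.95 without reflux, a difference of -2.22 ± 0.27 (adjusted p = 0.00283). The groups were tight and far apart. With scan day as a block, which compares with no-reflux replicate 3 only, Rab27a was -2.49 (adjusted p = 0.0162). Its probe lies on chromosome 9 at 72944668 to 72944727 (mm9). In the wild type it did not move past the threshold (0.06 ± 0.27), and the null effect minus the wild-type effect was -2.28 ± 0.38 (0.00968).

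Several falls were in signalling genes. Wnt2, a ligand made by mesenchyme and endothelium, read 0.11, -0.19 and -0.07 under gastric reflux, against 0.96, 1.50 and 1.60 without reflux (-1.41 ± 0.27, adjusted p = 0.0309). The wild type went the opposite way at 1.07 (0.0354), and the effects differed by -2.48 (0.00812). Edn2, which encodes the vasoconstrictor endothelin 2, read 0.31, 0.64 and 0.58, against 1.63, 1.22 and 1.51 (-0.94 ± 0.14, 0.00859), and fell by 0.82 in the wild type as well (0.0116). Ccn3, a matrix-bound signalling protein, fell by 1.45 ± 0.28 (0.0309). Rps6ka3, the growth factor kinase RSK2, read -0.99, -1.09 and -0.44, against 0.76, 0.90 and -0.01 (-1.39 ± 0.26, 0.0251), so no-reflux replicate 3 lay nearest to the gastric arrays.

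Regulators of transcription and of the cytoskeleton were also among the falls. Cap1, which recycles actin monomers, read -2.15, -2.56 and -2.08 under gastric reflux, against -1.01, -0.80 and -0.92 without reflux (-1.35 ± 0.18, adjusted p = 0.0044). Max, the partner of Myc, read 1.25, 1.17 and 1.13, against 2.24, 2.27 and 1.97 (-0.98 ± 0.15, 0.00964). Depp1, a target of FOXO factors, fell by 1.40 ± 0.26 (0.0251), and Irf2bpl by 1.32 ± 0.26 (0.034). Snrk, Kif1b, Rin2 and Arl15 fell by 1.22, 1.00, 1.05 and 1.07, with adjusted p of 0.0398, 0.0443, 0.0447 and 0.0151.

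Per1, a core clock repressor that follows the hour of the day, read -0.52, -1.77 and -1.57 under gastric reflux, against 0.05, -0.11 and -0.12 without reflux (-1.23 ± 0.26, adjusted p = 0.0398). It was the 1 of 18 clock genes past the threshold, and the list's median was -0.19. The labels do not state the hour at which tissue was taken. Ndrg1, a gene induced by low oxygen, fell by 0.86 ± 0.16 (0.0309) and was the 1 of 26 hypoxia and glycolysis genes to pass. That list had 10 members with non-overlapping lower arrays, where 5.85% of all genes had them, and a median of -0.32.

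**Figure D3:**
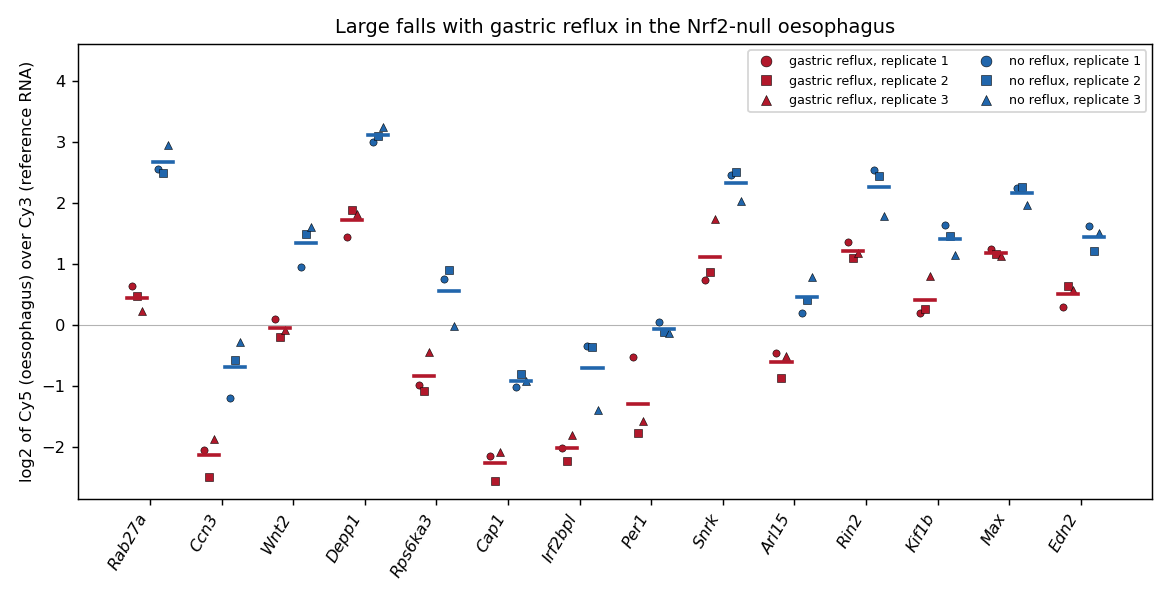
Log2 ratio of Cy5 over Cy3 of the genes with the largest falls that are reported here, on each gastric reflux array (red, left of each pair) and each array without reflux (blue, right), with bars at group means. Rab27a shows the widest gap, with 0.23 to 0.65 under gastric reflux against 2.50 to 2.95 without reflux.

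Some genes of immune cells rose. Cd163l1, a scavenger receptor known from gamma delta T cells, read 4.53, 3.56 and 3.94 under gastric reflux and 1.91, 1.10 and 2.05 without reflux (2.32 ± 0.33, adjusted p = 0.0046), and rose by 1.84 in the wild type too (0.014). Fcgr4, an activating receptor for antibody on myeloid cells, read 0.39, -0.58 and 0.89, against -1.70, -1.68 and -0.69 (1.59 ± 0.30, 0.027). Tnfrsf4, the T cell costimulator OX40, read 1.77, 0.68 and 0.88, against -0.11, -0.58 and 0.04 (1.33 ± 0.27, 0.0383). The adaptor Lat2, which passes on signals in lymphoid and myeloid cells, rose by 1.35 ± 0.27 (0.0354). Cd163l1, Fcgr4 and Lat2, like Hamp2 below, lie outside the rule for named genes and were chosen after their values were seen.

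The lists of immune and inflammatory genes held no member past the threshold. Of 23 neutrophil, 27 macrophage, 19 T and NK cell and 16 MHC class II genes, 0 passed, with medians of 0.55, -0.18, 0.60 and 0.47. The T cell gene Cd3d read 0.63, 1.73 and 3.03 under gastric reflux, against 0.00, -0.47 and 0.78 without reflux (1.69 ± 0.58, adjusted p = 0.173), so the groups overlapped. S100a8, a neutrophil and keratinocyte alarmin, read 2.65, 3.23 and 1.49, against 0.29, 0.12 and 1.18 (1.93 ± 0.79, 0.243). Ltf, a granule protein of neutrophils, measured 2.07 ± 0.73 (0.179).

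Inflammation rested on different arrays for different genes. The cytokine Il1b read 4.56 on gastric replicate 1 and -0.12 and 0.60 on the other gastric arrays, against -0.44, -0.99 and -1.12 without reflux (2.53 ± 0.80, adjusted p = 0.143). Interferon-stimulated genes were instead high on gastric replicate 3: the 30 genes averaged -0.47, -1.24 and 2.41, against -1.08, -0.95 and 0.18 without reflux. The antiviral gene Rsad2 read -1.13, -2.83 and 1.79, against -3.17, -3.16 and -1.75 (1.97 ± 0.71, 0.188). The interferon list had a median of 0.73, with 0 of 30 past the threshold and 0 with non-overlapping arrays. No-reflux replicate 3, the array scanned on the same day as the gastric ones, was the highest of its group for this list, for Rsad2 and for Cd3d. Without gastric replicate 3 the interferon median turned to -0.30, with 9 of 30 genes positive, and with scan day as a block it was 0.11, with 17 of 30 positive. Leaving out any other single array of these 2 groups gave 0.51 to 1.48, with 7 genes past the threshold without gastric replicate 2 and 0 without each of the others.

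Hamp2, a liver hormone gene related to hepcidin, rose by 1.15 ± 0.16 (adjusted p = 0.0044). It read 1.40, 1.76 and 1.14 under gastric reflux, against 0.35, 0.31 and 0.18 without reflux. The null and wild-type effects differed by 1.41 (0.00877).

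No squamous differentiation gene passed in the null. Of 36 such genes 0 passed the threshold, 8 had non-overlapping higher and 3 non-overlapping lower arrays, and the median was 0.33. Over all genes 10.2% had non-overlapping higher and 5.85% non-overlapping lower arrays. Mal, a membrane protein of squamous and other polarised cells, was nearest to the threshold, at -0.17, 0.47 and 0.68 under gastric reflux, against 1.46, 2.39 and 2.27 without reflux (-1.71 ± 0.38, adjusted p = 0.053). Krt16, a keratin of stressed and fast-renewing epithelium, read 4.20, 4.42 and 5.24, against 2.12, 2.46 and 3.72 (1.85 ± 0.47, 0.0833). It led the 31 genes of wounded epithelium in p, of which 0 passed and whose median was 0.25. Of 20 basal keratinocyte and 19 desmosome genes, 0 passed as well, with medians of 0.09 and 0.02. Of 21 columnar epithelium genes 1 was higher, which is Fabp1, and the median was 0.12.

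Nrf2 target genes held no call in the null, which lacks Nrf2, and none in the wild type, which has it. In the wild type 0 of the 41 measured passed with gastric reflux, at a median of -0.09. The effects differed between genotypes for 0 of them. Of 41 targets 0 passed, 3 were higher and 4 lower at an unadjusted p under 0.05, and the median was -0.07. Over all genes 10.5% were higher and 6.22% lower at that unadjusted p. Gsta3, a glutathione transferase, read -0.88, -0.55 and -1.06 under gastric reflux, against -1.65, -1.74 and -1.45 without reflux (0.78 ± 0.22, adjusted p = 0.112). Gpx2, a glutathione peroxidase of epithelia, measured 0.93 ± 0.44 (0.305), and Gclm, the modifier subunit of glutathione synthesis, -0.79 ± 0.41 (0.341).

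**Figure D4:**
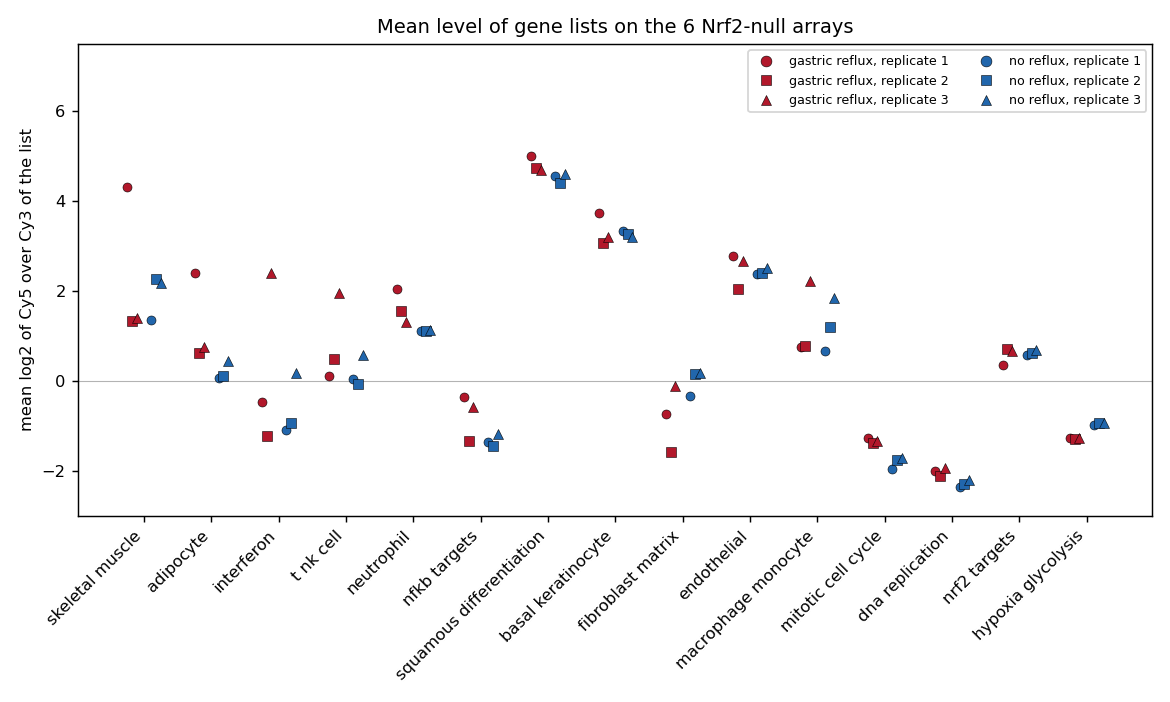
Mean log2 ratio of Cy5 over Cy3 of 15 gene lists on the 3 gastric reflux arrays (red) and the 3 arrays without reflux (blue), with 1 symbol per replicate. Skeletal muscle (4.32) and adipocyte genes (2.39) are highest on gastric replicate 1 and interferon-stimulated genes (2.41) on gastric replicate 3, while the mitotic list separates the groups at -1.38 to -1.27 under gastric reflux against -1.96 to -1.73 without reflux.

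Genes of cell division were higher on the gastric arrays, few of them past the threshold. Of 30 mitotic genes 29 had a positive difference, 19 had non-overlapping higher arrays, and 1 passed. Their median was 0.46, against 0.06 over all genes, of which 10.2% had non-overlapping higher arrays. The list averaged -1.27, -1.38 and -1.33 under gastric reflux and -1.96, -1.76 and -1.73 without reflux, so the groups did not overlap and gastric replicate 1 did not stand out. Cdc20, the activator of the complex that ends mitosis, was the 1 to pass, at 0.00, -0.70 and -0.58 under gastric reflux, against -1.55, -1.30 and -1.24 without reflux (0.94 ± 0.19, adjusted p = 0.0425). The centromere histone Cenpa read -0.70, -0.37 and -0.73, against -1.77, -1.51 and -1.14 (0.87 ± 0.20, 0.0624). Mki67, the usual marker of dividing cells, measured 0.18 ± 0.30 (0.792), and Top2a -0.09 ± 0.23 (0.881), the 1 negative member.

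Replication genes were less shifted. Of 28 DNA replication genes 1 passed and 9 had non-overlapping higher arrays, where 10.2% of all genes had them, with a median of 0.29. Gins1, a subunit of the replicative helicase, read -2.28, -2.04 and -1.99 under gastric reflux, against -3.42, -3.18 and -2.62 without reflux (0.98 ± 0.19, adjusted p = 0.0294). With scan day as a block, and so against no-reflux replicate 3 only, the mitotic median was 0.40. With median centring of the arrays instead of loess the mitotic median was 0.26. With that centring the replication median was 0.03, with 14 of 28 positive and 0 past the threshold, and the median of all genes was -0.08.

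The response of the mitotic list differed between the genotypes. In the wild type all 30 genes were negative with gastric reflux, 14 of them past the threshold, with a median of -0.78. The null effect minus the wild-type effect was positive for 17 of the 30 past the threshold and negative for 0, with a median of 1.19. Over all genes the null effect was higher for 321 (1.56%) and lower for 149 (0.725%). With median centring of the arrays instead of loess that split was 217 higher and 1620 lower, the median of all genes moved to -0.48, against 0.10, and 2 mitotic genes passed at a median of 0.22. For Cdc20 the wild-type effect was -1.27 ± 0.27 (adjusted p = 0.0259), and the difference of effects was 2.21 ± 0.34 (0.00877). For Bub1, a checkpoint kinase measured on all wild-type arrays without reflux, it was 1.60 ± 0.28 (0.0118).

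These genotype values rest on few wild-type arrays. Of the 17 genes, 6 (Cdc20 among them) were measured on 1 wild-type array without reflux, 3 on 2 and 8 on 3. No scan day held all 4 groups, and with scan day as a block 0 of the 30 passed, with a median of 1.23. That block leaves replicate 3 as the only no-reflux array of each genotype in the contrast. Skeletal muscle genes had a median effect of 2.74 in the wild type and 0.45 in the null. Of 30 such genes 2 were higher in the wild type and 0 in the null, and the effects differed for 0. In the null only gastric replicate 1 was high for this list, at a mean of 4.32, against 1.34 and 1.39 on replicates 2 and 3. With that muscle list as a covariate, 13 of the 30 mitotic genes passed, at a median of 1.08. The part that the mix of tissues has in these genotype values was not tested.

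Matrix and fibroblast genes ran the other way. Of 24 such genes 0 passed in the null, where the median was -0.92 and 7 had non-overlapping lower arrays, against 5.85% of all genes. The wild-type median was 0.92 with 2 higher. Without gastric replicate 2 the null median was -0.51, and with gastric replicate 3 as the only gastric array it was -0.06. Timp2, an inhibitor of matrix proteases, read -2.08, -3.81 and -2.15 under gastric reflux, against -0.49, -0.29 and -1.74 without reflux (-1.84 ± 0.58, adjusted p = 0.15). The collagen chain Col1a2 read -2.90, -4.49 and -2.46, against -1.88, -1.57 and -2.23 (-1.39 ± 0.55, 0.229). Gastric replicate 2, the array whose sex-linked genes went against its label, was the lowest for both. The fibroblast markers averaged -1.02, -1.98 and -0.08, against -0.21, 0.29 and 0.23.

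The difference of effects passed for 2 of these genes, with a list median of -1.85. With the skeletal muscle list as a covariate 0 passed, at a median of -1.67. Cilp, a matrix protein of cartilage, had a null effect of -1.25 and a wild-type effect of 3.65, so the effects differed by -4.90 (adjusted p = 0.0364). Fbn1, the microfibril protein fibrillin 1, differed by -1.11 and 1.78, with effects apart by -2.89 ± 0.67 (0.0372). Thbs4, a matrix protein of muscle and tendon, averaged 3.52 ± 1.23 in null gastric reflux and 5.76 ± 0.72 in null without reflux (SD, n = 3 each). Wild-type gastric reflux gave 6.15 ± 0.46 and wild type without reflux 3.62 ± 0.27 for it, so the effects differed by -4.77 (0.0263). With the scanner software's own ratios in place of these, that Thbs4 difference was 0.11. The lymphatic vessel gene Lyve1 differed by -4.58 (0.0448) between genotypes, and Angptl1, a secreted angiopoietin relative, by -3.92 (0.0101).

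The mean levels of all 8 groups of the series were ranked. The comparison itself chose the rises and falls, so extreme ranks of the null gastric and no-reflux groups were partly built in. For 51 of the 86 rises the null group without reflux was the lowest of all 8 group means of the series, and for 17 of the 30 falls it was the highest. The gastric group was the highest for 43 rises and the lowest for 12 falls.

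**Figure D5:**
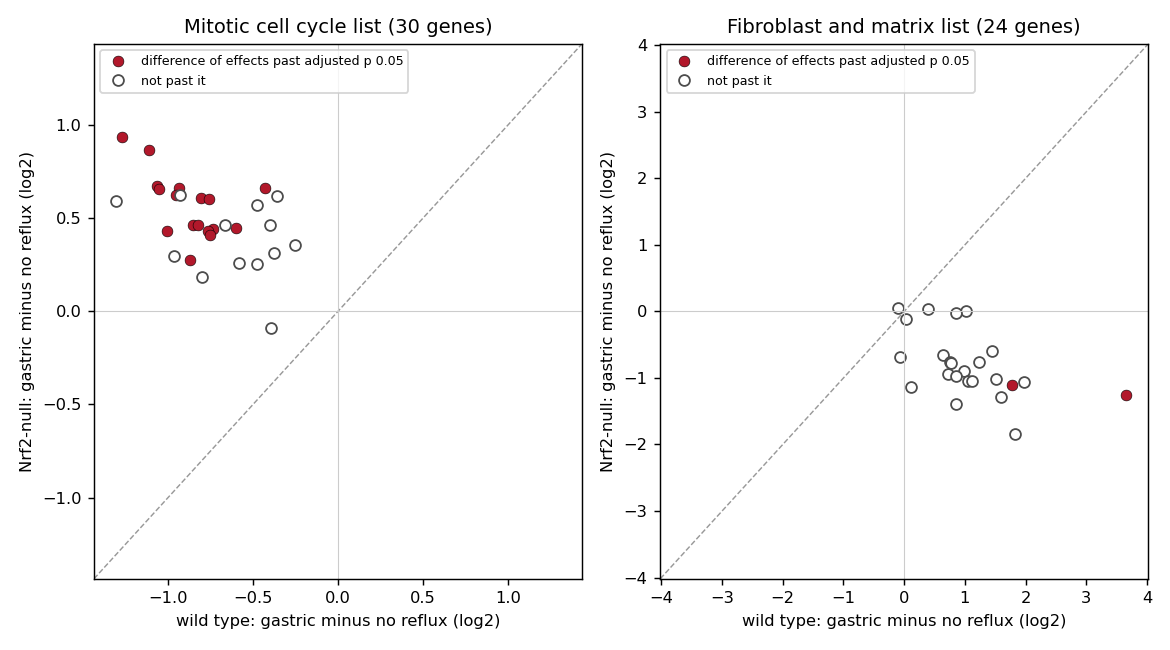
Difference with gastric reflux (log2 ratio, gastric minus no reflux) in Nrf2-null (vertical axis) against wild type (horizontal axis), for 30 mitotic genes (left) and 24 matrix and fibroblast genes (right). Mitotic genes other than Top2a lie above 0 in the null and below 0 in the wild type, with 17 filled points whose difference of effects passed, and matrix genes lie mostly below 0 in the null, with 2 filled points.

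Gastric and duodenal reflux were also set against each other within the null genotype, which leaves out the shared arrays without reflux. Gastric reflux was higher for 341 genes (1.66%) and lower for 852 (4.14%). Of 36 squamous differentiation genes 2 were higher and 1 lower, with a median of -0.36, against -0.02 over all genes. Krt1, a keratin of cornifying layers, read 1.33, 5.41 and 3.72 under gastric and averaged -0.08 ± 0.06 (SD, n = 3) under duodenal reflux (3.56 ± 0.74, adjusted p = 0.00758). Ivl, the envelope protein involucrin, read 1.04, 4.62 and 3.48 under gastric and averaged 0.76 ± 0.55 under duodenal reflux (2.29 ± 0.58, 0.027). Gastric replicate 1 was the lowest gastric array for both, and for Ivl it lay within the duodenal spread. Cyp1a1, a detoxifying enzyme switched on by the aryl hydrocarbon receptor, was higher by 2.92 ± 0.51 (0.00225).

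Many genes of inflammation and wounded epithelium were lower under gastric than under duodenal reflux. Of 31 wounded epithelium genes 20 were lower and 0 higher, with a median of -1.51. Of 33 NF-kB targets 16 were lower and 0 higher (median -0.77), and of 23 neutrophil genes 12 were lower and 0 higher (median -0.95). Il19, a cytokine of the interleukin 10 family, read 0.02, 0.02 and -0.05 under gastric and averaged 4.79 ± 0.96 (SD, n = 3) under duodenal reflux (-4.79 ± 0.75, adjusted p = 0.00119). S100a8 was lower by 5.70 ± 0.79 (0.000404), the protease Mmp3 by 4.58 ± 0.75 (0.00159), the anion exchanger Slc26a4 by 5.29 ± 0.72 (0.000338) and Pthlh, a hormone-like growth regulator, by 4.50 ± 0.58 (0.000248). The protease inhibitor Spink12 had the largest difference, at 0.71, 3.04 and 0.84 under gastric against 7.36 ± 0.72 under duodenal reflux (-5.83 ± 0.91, 0.00108). This comparison uses the same gastric arrays as the one above. Edn2, which fell with gastric reflux, averaged 2.77 ± 0.06 under duodenal reflux, lower by 2.26 ± 0.14 under gastric (1.51e-07). Rab27a averaged 1.66 ± 0.72 under duodenal reflux and was lower by 1.20 ± 0.27 under gastric reflux (0.0134). Duodenal replicate 2 had a median Cy5 signal of 85.3, as low as that of gastric replicate 1, and without these 2 arrays 2522 genes differed in place of 1193.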

How the data were processed

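RNA of the oesophagus was measured on 2-colour Agilent arrays, 24 in 8 groups of 3. The deposited scanner files give, per the file headers, the intensity of each spot and its local background on a linear scale, and the software's log10 ratio of both dyes. For the 6 arrays compared here the headers give build mm9 and software version 10.7.3.1. Wild-type no-reflux replicates 1 and 2 have build mm7 and version 10.5.1.1 instead. Agilent Feature Extraction is listed as 9.1 in the submitters' processing notes. The authors' deposited value table holds log2 values of unstated normalisation, which were used as an alternative.

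Ratios were recomputed with limma 3.58.1 in R 4.3.3 (normexp with an offset of 50, loess within each array, 1639 control spots at weight 0). Outlier-marked local backgrounds took the array's median background instead, a choice made with the data seen. Control and outlier spots were left out, which kept 43379 spots of 41174 probes, and repeat spots were averaged. RefSeq accessions named 27015 probes, its symbols 5016 and its synonyms 798, while 8345 kept their file name. The brightest probe stood for each gene, among probes well above background in Cy5 throughout at least 1 group. The 3 arrays of Nrf2-null mixed reflux (r of 0.993 to 0.994) were counted as 1 sample.

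The test was limma's lmFit and eBayes on 22 samples with 1 mean for each group, 14 residual degrees of freedom and 2.92 from the prior. Benjamini-Hochberg adjustment ran over all genes, with a threshold of 0.05. Errors after ± are standard errors from this model, or SDs where named so. P-values measure only the spread between these samples. "At least N-fold" uses Cy5 levels after loess and Aquantile. Named genes are the 15 largest rises and falls with non-overlapping arrays, leading members of each gene list, and the 8 largest differences each way in the other comparisons. Some named genes are not reported here. The members and lists were chosen with earlier results of these data known.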

Additional observations from a re-analysis of the deposited data

Results flagged for a closer look

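The effect of gastric reflux differed between Nrf2-null and wild type, by a test of the difference itself (limma's interaction contrast), for 32 of the genes named, and no explanation was tested. Each value is the null effect minus the wild-type effect on the log2 scale. Liver and immune genes were Ahsg at 2.96, Hamp2 at 1.41, Tnfrsf4 at 2.26 and Fcgr4 at 2.00. For Ahsg the wild type was already higher than the null without reflux. Genes of cell division were Cdc20 at 2.21, Sapcd2, which helps to orient the spindle, at 2.17, the centromere histone Cenpa at 1.98, the checkpoint kinase Bub1 at 1.60 and Gins1 at 1.07. Other genes with a higher null effect were the uroplakin relative Upk3bl at 2.65, C430049B03Rik at 2.32, the casein gene Csn3 at 2.30 and the intestinal sucrase gene Sis at 2.29. In Upk3bl the null effect itself was -0.02 and the wild-type effect -2.67, so the difference lay in the wild type.

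Matrix and stromal genes had a lower null effect: Cilp at -4.90, Thbs4 at -4.77, the lymphatic gene Lyve1 at -4.58, Ecm2 at -4.13, Angptl1 at -3.92, Mamdc2 at -3.58 and Fbn1 at -2.89. The transcript 9330159F19Rik was at -4.10 and Klhl13 at -3.79, where another Klhl13 probe had the opposite sign. Among genes that fell in the null, Wnt2 was at -2.48, Rab27a at -2.28, Ccn3 at -2.12, Snrk at -2.12 and Arl15 at -1.77. Per1 was at -1.43, Kif1b at -1.32, Cap1 at -1.26, Snap29 at -1.24 and Max at -1.12. Upk3bl, Cdc20, Sapcd2, Snrk, Arl15, Snap29 and Max were measured on 1 wild-type array without reflux, and no scan day held all 4 groups.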

How the results depend on the processing

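As reported, 86 genes were higher and 30 lower, 470 differed in effect between genotypes, 1193 differed from duodenal reflux, 9 liver genes were higher and 17 mitotic genes had a higher null effect. Counts in that order (higher and lower first) were as follows under the alternatives that moved any of them by over 1.5 times. Median centring in place of loess gave 44 and 11, 1837, 272, and 2 mitotic genes, and moved the median of all genes to -0.08, against 0.06. Backgrounds as read gave 2500, the scanner software's ratios 217 and 11 mitotic genes, the deposited values 177 and 8 mitotic genes, and an offset of 20 gave 303 genotype differences. Probes above background on all 6 arrays gave 43 and 17, with 4 liver genes. The 6 arrays alone gave 8 and 1, with 5 liver genes, and the Nrf2-null arrays alone 0 and 0, with 0 liver genes (limma, 1917 at an unadjusted p under 0.05). Every array as its own sample gave 307 and 133, with 1326 genotype differences. Slide as a random block gave 51 and 15, and 164, and as a fixed block 1673 and 1519, 3411 and 3921. Scan day as a block gave 3 and 12, 13, 2979, 1 liver and 0 mitotic genes, and day 3 alone 0 and 2 with 0 liver genes (limma, 519 at an unadjusted p under 0.05). Array weights gave 4413 and 2895, 7700, 7756, 16 liver and 29 mitotic genes. The muscle list as a covariate gave 187 and 79. Leaving out 1 array gave 8 to 297 higher and 3 to 221 lower, 51 to 2197 genotype differences, 717 to 3927 differences from duodenal reflux, 2 to 9 liver and 6 to 26 mitotic genes. Alternatives chosen after seeing the data came last: without both Nrf2-null arrays of low Cy5 signal the counts were 305 and 195, 1600 and 2522, and with gastric replicate 3 as the only gastric array 231 and 10, 156, and 7 mitotic genes. The lone array is assumed to vary like the other groups.

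With the replicate number as a block, the counts were 47 and 11, with 205 genotype differences and 11 mitotic genes. Arrays of the same number correlated at 0.373, 0.0689 and 0.284 in their deviations, so the numbers were not taken as pairs. Recomputed under the alternatives, the 79 named gene results past the threshold kept their side in 1659 cases, lost the call in 522 and reversed in 1, which was the Thbs4 genotype difference at 0.11 with the software's ratios. Cd3d, not called, was at -0.15 with slide as a fixed block and within the slide. The cause of these changes was not tested. Signal limits the liver genes: 21 of the 86 rises were not well above background on any array without reflux.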
